A study of Homo sapiens with 8 samples.

Results

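The genes described here are 10 components of the switch that lets a cell leave the G1 phase of its cycle. They are the D-type cyclins CCND1, CCND2 and CCND3, their kinase partners CDK4 and CDK6, the kinase inhibitors CDKN1A, CDKN1B, CDKN2A and CDKN2B, and the retinoblastoma gene RB1. They were chosen by name and not by any measured value, and each matched 1 of the 62649 genes in the deposited table. A total of 9 of the 10 reached 1 TPM (a level scaled by transcript length and by the total of the library) in at least 2 libraries, as did 19122 genes in all. CCND2 did not, and it was not tested.

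RNA was sequenced from AsPC-1 and PANC-1, which are established cell lines from human pancreatic cancers and are both labelled as wild type. The cells had grown as spheroids in methylcellulose medium for 3 days and were then treated for 24 h. The treatments were vehicle, 10 µM roseoflavin (a riboflavin analogue), 1 nM trametinib (an inhibitor of the kinases MEK1 and MEK2) or both compounds together. Each of the 8 combinations of line and treatment had 1 library, so no group had a replicate. A change between 2 libraries of a line is therefore given as values with no test. The tests set 4 libraries against 4, with the libraries of the other line or the other treatments in place of replicates. The labels do not say whether the libraries came from separate cultures or days, and a difference between the lines is one between these 2 lines only.

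In G1, mitogen signals through MEK and ERK raise D-type cyclins, which bind and activate CDK4 and CDK6. These kinases phosphorylate the RB protein, which otherwise holds E2F factors silent, and released E2F factors switch on the genes of DNA synthesis. The INK4 proteins (among them p16INK4a from CDKN2A and p15INK4b from CDKN2B) bind CDK4 and CDK6 and keep the cyclin away. The CIP/KIP proteins (p21 from CDKN1A, p27 from CDKN1B) chiefly inhibit CDK2 complexes. CDKN2A also encodes a second protein, p14ARF, in another reading frame. Loss of CDKN2A is common in pancreatic ductal adenocarcinoma.

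All 7 epithelial markers examined (EPCAM, CDH1, KRT7, KRT8, KRT18, KRT19 and CLDN4) were at 1 TPM or more in each of the 8 libraries. Their summed levels were 7747 to 8934 TPM in AsPC-1 and 2782 to 3098 TPM in PANC-1. In PANC-1, KRT8, KRT18 and KRT19 averaged 912, 926 and 990 TPM and made up most of the sum. There CLDN4 was at 64.5 to 74.6 TPM, EPCAM at 14.5 to 16.8, CDH1 at 5.0 to 6.6 and KRT7 at 3.3 to 3.8. Of the mesenchymal markers, VIM was at 660 to 816 TPM in AsPC-1 and 3132 to 3391 TPM in PANC-1. ZEB1 was at 7.7 to 9.1 TPM in AsPC-1 and 16.9 to 18.8 TPM in PANC-1. CDH2 transcripts appeared only in PANC-1 (5.48 to 5.57 TPM), and FN1 reached at most 0.533 TPM. Endothelial markers summed to at most 0.252 TPM, and among the leukocyte markers CD3E had no level above 0 and PTPRC, the pan-leukocyte gene, was at most 0.019 TPM. CD68, a lysosomal gene used as a macrophage marker, was at 108 to 114 TPM in AsPC-1 and 120 to 139 TPM in PANC-1. Some other markers were high in 1 line. LYZ, a leukocyte marker, averaged 1908 TPM in AsPC-1, while CD79A on the same list was at most 0.641 TPM. Of the fibroblast markers, LUM averaged 126 TPM in AsPC-1 and COL1A1 averaged 103 TPM in PANC-1. The others on the fibroblast list were low in every library. COL1A2 was at most 0.027 TPM, DCN at most 0.083 TPM and PDGFRB at most 0.892 TPM. TPM values sum to the same total in each library, so the depth is unknown and no counting interval can be given. Transcripts of the mitochondrial genome took 41.2% to 44.1% of that total in AsPC-1 and 22.8% to 25.6% in PANC-1.

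The lines differed in most genes. By limma with Benjamini-Hochberg adjustment over all genes tested, 16027 of 19122 genes (83.8%) passed an adjusted p of 0.05 between the lines. Of all genes tested, 62.3% were higher in PANC-1 and 21.5% were lower. All 9 members tested passed. For CDKN2A and CDKN2B, both lower, the call carries no information: they passed the filter through AsPC-1 alone and are 0 in PANC-1. The other 7 were detected in both lines. Of these, 6 were higher in PANC-1, as were 62.3% of all genes tested, and CDKN1B was lower. Differences are therefore also given relative to the median gene, which was higher in PANC-1 by 0.55 on the log2(TPM + 1) scale. This scale is used for all changes below and understates those of genes with low values. The median difference was 0.22 when mitochondrial genes were left out of the total and 0.042 after quantile normalization. The share of passing genes that were higher in PANC-1 moved with it, from 74.4% to 60.9% and 52.6%.

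The compounds gave no gene past the threshold. By limma, 0 of 19122 genes (0.0%) had an adjusted p under 0.05 for trametinib, and 938 genes (4.91%) had an unadjusted p under 0.05. For roseoflavin these counts were 0 (0.0%) and 1358 (7.1%). None of the 9 members had an unadjusted p under 0.05 for either compound. The median change of the members was 0.017 for trametinib and -0.017 for roseoflavin, and the medians of all genes tested were 0.018 and -0.017.

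Among the members, CCND1 had the highest mean level in both lines. In AsPC-1 the order by mean level was CCND1, CDKN2A, CDK4, CDKN2B, CDKN1A, CDKN1B, RB1, CDK6, CCND3 and CCND2. Of the neighbours in that order, CDKN1B and RB1 overlapped in their ranges over the 4 libraries, and no others did. In PANC-1 the order was CCND1, CDKN1A, CDK4, RB1, CDK6, CDKN1B, CCND3 and CCND2, with CDKN2A and CDKN2B listed at 0. There CDKN1B and CCND3 overlapped, as did the genes at or near 0. CDKN2A was second in AsPC-1 and CDKN1A was second in PANC-1. The samples are bulk RNA, so fewer cells with a transcript and less of it per cell cannot be told apart.

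**Figure D1:**
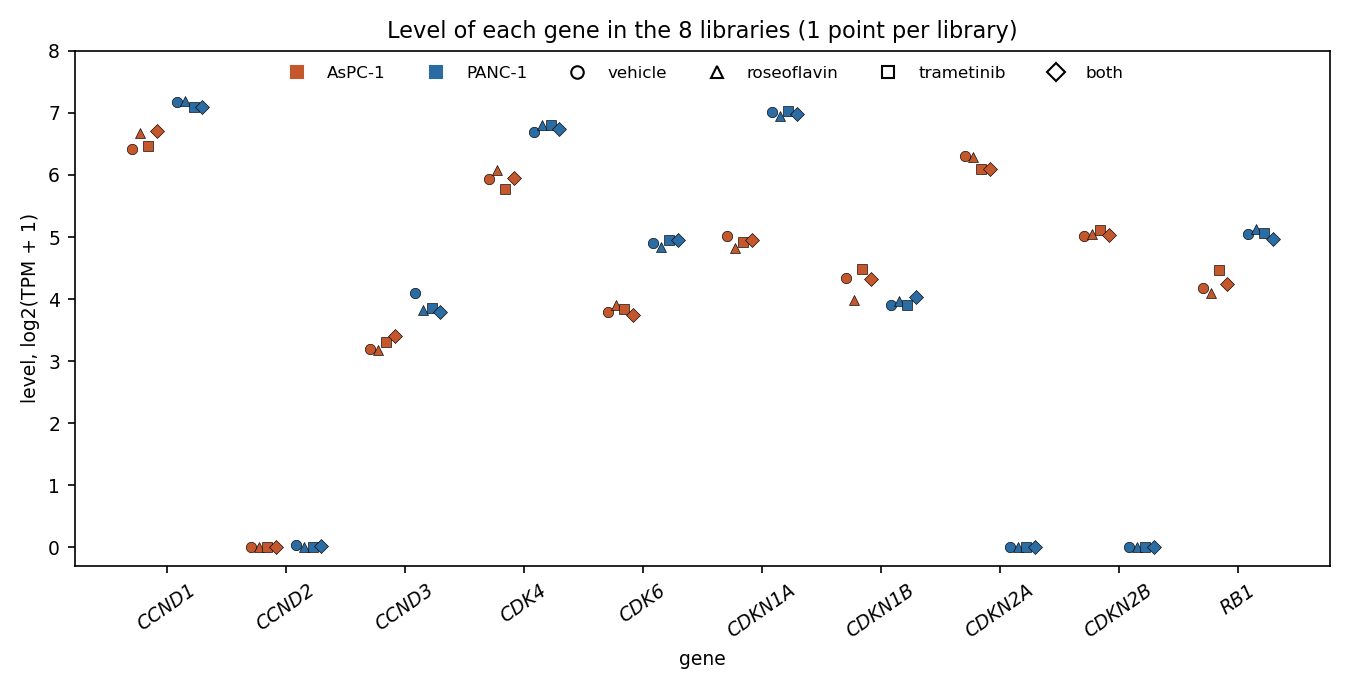
Level of each of the 10 genes in each of the 8 libraries, on the log2(TPM + 1) scale; colour marks the line and shape the treatment. The lines separate for every gene except CCND2 and CDKN1B, CDKN2A and CDKN2B are at 0 in PANC-1, and the 4 treatments of a line lie close together.

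CCND1, the D-type cyclin raised by mitogens in most epithelia, made up nearly all of the D-cyclin transcripts in both lines. In AsPC-1 its level was 84.8 TPM with vehicle, 101 TPM with roseoflavin, 87.3 TPM with trametinib and 103 TPM with both compounds. In PANC-1 it was 144, 145, 136 and 136 TPM in the same order. Every PANC-1 library lay above every AsPC-1 library, as in 65.1% of genes with an average of 10 TPM or more, which all 9 members tested had. CCND1 took 90.7% to 92.6% of the summed TPM of the 3 D-type cyclins in AsPC-1 and 89.9% to 91.7% in PANC-1. PANC-1 was higher by 0.58 (SE 0.060, limma adjusted p = 9.81e-05), only 0.022 above the median gene. Without mitochondrial genes it was 0.19 and still passed, and after quantile normalization it was 0.16 and no longer passed (limma adjusted p = 0.0549).

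Within AsPC-1, both libraries with roseoflavin had more CCND1 than both without it. The matched changes were 0.25 without trametinib and 0.24 with it. In PANC-1 the same changes were 0.019 and -0.00077. Such an upward separation of the roseoflavin libraries in AsPC-1 was found in 12.4% of genes at that level. The difference between the lines in the roseoflavin effect on CCND1 was -0.23 (SE 0.048), with an unadjusted limma p of 0.00867 that ranked 483 among 19122 genes. It did not pass adjustment (limma adjusted p = 0.339). No gene passed that test (0.0%), and 2227 genes (11.6%) had an unadjusted p under 0.05. Against vehicle, the library with both compounds in AsPC-1 was higher by 0.28, past the mark of 1.2-fold on this scale that 13.1% of genes at that level passed in that pair. The roseoflavin effect over both lines was 0.13 (SE 0.060, limma adjusted p = 0.716).

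With trametinib, which blocks a pathway known to raise CCND1, its level stayed near that of the matched library. The matched changes with trametinib were 0.040 and 0.028 in AsPC-1. The PANC-1 values were -0.078 and -0.098. Over both lines the change was -0.027 (SE 0.060, limma adjusted p = 0.961). The signs of the matched changes were thus opposite in the 2 lines, and the test of that difference gave -0.12 (SE 0.048, limma adjusted p = 0.530). Of genes at that level, 9.14% were likewise higher in both matched comparisons of AsPC-1 and lower in both of PANC-1.

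CCND3, a D-type cyclin best known from blood cells, was present at a low level. In AsPC-1 it was at 8.20, 8.07, 8.92 and 9.59 TPM with vehicle, roseoflavin, trametinib and both. In PANC-1 it was at 16.1, 13.2, 13.5 and 12.9 TPM. The PANC-1 vehicle library stood above the other 3, which lay close together. The lines did not overlap, and differed by 0.62 (SE 0.087, limma adjusted p = 5.04e-04), 0.067 above the median gene. Without mitochondrial genes that difference was 0.27 and still passed. After quantile normalization it was 0.089 and did not pass (limma adjusted p = 0.389).

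In PANC-1, CCND3 was lower than vehicle by more than 1.2-fold with roseoflavin (a change of -0.27) and with both compounds (-0.30). In these pairs 6.93% and 9.47% of genes at 10 TPM or more were past 1.2-fold in either direction. With trametinib alone it was at -0.24. In AsPC-1 the matched changes with trametinib were 0.11 and 0.22. The difference between the lines in the trametinib effect on CCND3 was -0.30 (SE 0.11), with an unadjusted limma p of 0.0490 and an adjusted p of 0.514. No gene passed that test (0.0%), and 9.7% of genes had an unadjusted p under 0.05. The PANC-1 changes against vehicle share 1 library, so they are not separate observations.

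CCND2, the D-type cyclin of neurons, germ cells and many blood cells, had a level of 0 in each of the AsPC-1 libraries. In PANC-1 it was at 0.028 TPM with vehicle and 0.019 TPM with both compounds, and listed at 0 in the other two. The longest exact run of bases shared by any annotated protein-coding transcripts of CCND1 and CCND2 was 23. A read longer than that could not match such transcripts of both genes exactly.

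CDK4 and CDK6, the kinases that D-type cyclins activate, were both higher in PANC-1. CDK4 was at 60.2, 66.4, 54.0 and 60.8 TPM in AsPC-1 with vehicle, roseoflavin, trametinib and both. In PANC-1 it was at 102, 110, 110 and 106 TPM. CDK6 was at 12.8, 13.9, 13.4 and 12.4 TPM in AsPC-1, and at 28.9, 27.6, 30.0 and 29.8 TPM in PANC-1. Neither gene overlapped between the lines. CDK4 differed by 0.82 (SE 0.056, limma adjusted p = 1.07e-05), which was 0.27 above the median gene. CDK6 differed by 1.09 (SE 0.052, limma adjusted p = 1.88e-06), which was 0.54 above it. Both also passed under the 2 other scalings, at smaller sizes. CDK4 was at 0.44 without mitochondrial genes and 0.38 after quantile normalization, and CDK6 at 0.73 and 0.57.

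The summed TPM of the 2 kinases was 67.3 to 80.3 in AsPC-1 and 131 to 140 in PANC-1, or 117 to 143 and 176 to 187 when mitochondrial genes were left out of the total. CDK6 made up 17.0% to 19.9% of that sum in AsPC-1 and 20.0% to 22.1% in PANC-1, so CDK4 was the main kinase transcript in both. In AsPC-1 the CDK4 level was higher in both libraries with roseoflavin than in both without, the separation that 12.4% of genes showed, with matched changes of 0.14 and 0.17. In PANC-1 those changes were 0.11 and -0.051. The roseoflavin effect over both lines was 0.092 for CDK4 (SE 0.056, limma adjusted p = 0.765) and -0.017 for CDK6 (SE 0.052, limma adjusted p = 0.959). With trametinib it was -0.055 for CDK4 (limma adjusted p = 0.900) and 0.017 for CDK6 (limma adjusted p = 0.974). The sign of the CDK6 values turned under another scaling, to 0.010 for roseoflavin after quantile normalization and -0.0019 for trametinib without mitochondrial genes.

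CDKN2A and CDKN2B, the neighbouring INK4 genes on chromosome 9, were abundant in AsPC-1 and listed at 0 in every PANC-1 library. The 250 bases before their annotated starts are printed here because both genes had this pattern. Those of CDKN1A, an inhibitor detected in both lines and higher in PANC-1, are printed beside them. They come from RefSeq on GRCh38.p14 and read 5′ to 3′ on the strand of the gene. Capitals mark the GC box letters GGGCGG or CCGCCC on either strand. The CDKN2A windows precede the start commonly assigned to p16INK4a (9:21974858-21975107, minus strand) and that assigned to p14ARF (9:21995325-21995574, minus strand). The CDKN2B window is 9:22009306-22009555 (minus strand) and the CDKN1A window is 6:36678464-36678713 (plus strand).
CDKN2A, p16INK4a start: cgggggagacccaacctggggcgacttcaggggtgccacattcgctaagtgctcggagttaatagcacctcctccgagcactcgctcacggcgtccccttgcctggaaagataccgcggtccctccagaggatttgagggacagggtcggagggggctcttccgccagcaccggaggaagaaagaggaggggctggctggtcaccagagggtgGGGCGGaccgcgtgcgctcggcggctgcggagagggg
CDKN2A, p14ARF start: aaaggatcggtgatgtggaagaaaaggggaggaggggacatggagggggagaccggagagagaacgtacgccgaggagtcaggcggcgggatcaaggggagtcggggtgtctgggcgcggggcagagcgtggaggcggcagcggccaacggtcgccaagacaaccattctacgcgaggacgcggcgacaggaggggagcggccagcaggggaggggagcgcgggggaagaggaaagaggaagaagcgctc
CDKN2B: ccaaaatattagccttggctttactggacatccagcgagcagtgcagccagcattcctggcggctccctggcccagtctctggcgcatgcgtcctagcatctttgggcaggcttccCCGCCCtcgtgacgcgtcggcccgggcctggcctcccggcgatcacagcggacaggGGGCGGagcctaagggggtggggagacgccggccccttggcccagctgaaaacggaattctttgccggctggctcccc
CDKN1A: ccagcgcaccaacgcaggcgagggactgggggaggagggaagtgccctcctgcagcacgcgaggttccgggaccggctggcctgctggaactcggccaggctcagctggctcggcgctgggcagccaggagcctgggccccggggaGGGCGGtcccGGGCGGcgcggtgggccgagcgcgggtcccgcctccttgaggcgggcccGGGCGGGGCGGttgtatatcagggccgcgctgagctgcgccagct

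The dinucleotide CpG stood 20 and 24 times in the CDKN2A windows, 18 times before CDKN2B and 27 times before CDKN1A, against a median of 11 over 35116 RefSeq windows of the same length. Of all windows, 67.6% and 76.3% had fewer than the CDKN2A windows, 63.2% fewer than CDKN2B and 82.3% fewer than CDKN1A. The GC box stood once in the first CDKN2A window, in no place in the second, 2 times before CDKN2B and 4 times before CDKN1A, where one pair shares a base. It was present in 42.6% of all windows. A search on both strands for the AP-1 motif TGACTCA, the E box CACGTG, the E2F motif TTTCGCGC and the CRE motif TGACGTCA found none in these windows. These motifs were present in 4.2%, 6.34%, 0.439% and 1.65% of all windows. Of the other members, CCND3, CDK4, CDK6, CDKN1B and RB1 had windows in the same table, while CCND1 and CCND2 did not. The CDK4 window held 3 E boxes.

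In AsPC-1, CDKN2A was at 77.7 TPM with vehicle, 77.2 TPM with roseoflavin, 67.4 TPM with trametinib and 67.5 TPM with both. CDKN2B was at 31.4, 31.9, 33.5 and 31.8 TPM in that order. In PANC-1 both were listed at 0 in all 4 libraries, so no fold and no test of the line difference are given for them here. Of 7541 genes at 10 TPM or more in all AsPC-1 libraries, 91 (1.21%) were listed at 0 in all 4 PANC-1 libraries, and these genes were among them. The gene-level value does not tell p16INK4a transcripts from p14ARF transcripts. The longest exact run of bases shared by annotated protein-coding transcripts of CDKN2A and CDKN2B was 80, so some reads may have matched both in AsPC-1.

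The listing at 0 extended over neighbouring genes. In GENCODE release 29 (GRCh38), CDKN2A lies at 9:21967753-21995301 and CDKN2B at 9:22002903-22009363, both on the minus strand. The antisense transcript CDKN2B-AS1 (9:21994778-22121097, plus strand) overlaps both. Its level was 0.325 to 0.465 TPM in AsPC-1, and it was listed at 0 in PANC-1. Whether the counting used strand is not stated, so reads of CDKN2B-AS1 may be among those of both genes. By start position, the run of named genes detected in AsPC-1 and listed at 0 in all PANC-1 libraries went from ERVFRD-3 (start 21929457) to UBA52P6 (start 22012155), which lies within the span of CDKN2B-AS1. CDKN2A-DT, inside that run, was listed at 0 in both lines. The ends of that run rest on low values. In AsPC-1, ERVFRD-3 was at 0.183 to 0.410 TPM and UBA52P6 at 0.517 to 1.445 TPM.

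Beyond that stretch, transcripts were present in PANC-1. MTAP, an enzyme of methionine salvage whose gene spans ERVFRD-3 and extends to the lower side, was at 8.66 to 9.28 TPM in AsPC-1 and 0.981 to 1.07 TPM in PANC-1, a difference of -2.28 (SE 0.051, limma adjusted p = 5.84e-08). KLHL9, further out on that side, was at 5.75 to 7.85 TPM in AsPC-1 and 12.0 to 12.8 TPM in PANC-1. On the upper side, DMRTA1 was at 1.40 to 1.91 TPM in AsPC-1 and 1.02 to 1.26 TPM in PANC-1. LINC01239 beyond it was at 0.660 to 1.39 TPM in AsPC-1 and 5.85 to 8.76 TPM in PANC-1. Listing at 0 went the other way for HACD4 and MLLT3, beyond KLHL9 on the lower side. Both were listed at 0 in all AsPC-1 libraries. In PANC-1, HACD4 was at 0.778 to 1.04 TPM and MLLT3 at 1.08 to 1.42 TPM. Of the 8 neighbours listed for this region, 5 were tested between the lines, and 2 passed as higher and 3 as lower in PANC-1. Over all genes tested, 62.3% passed as higher and 21.5% as lower. IFNE, among those lower, passed the filter through AsPC-1 alone, so its call carries little information. Its level was 0.944 to 2.28 TPM in AsPC-1 and 0.226 to 0.681 TPM in PANC-1. ERVFRD-3, UBA52P6, CDKN2A-DT, LINC01239 and MLLT3 were outside the list of 8 and were named after their values were seen. DNA was not measured, so absence of the DNA and absence of transcription cannot be told apart.

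**Figure D2:**
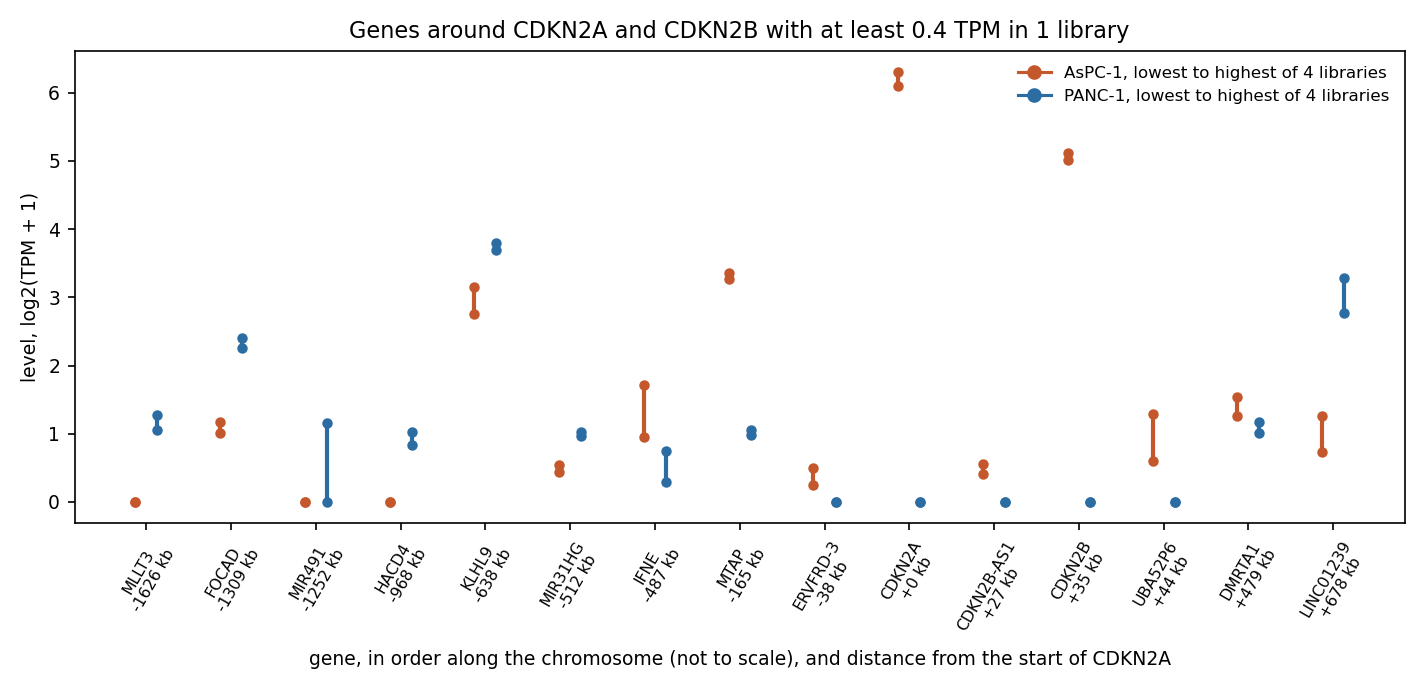
Genes around CDKN2A and CDKN2B that reached 0.4 TPM in at least 1 library, in order along the chromosome and not to scale, with the distance of each gene's lower end from that of CDKN2A; bars run from the lowest to the highest of the 4 libraries of a line on the log2(TPM + 1) scale. PANC-1 is at 0 from ERVFRD-3 to UBA52P6 and above 0 at MTAP and DMRTA1 on either side.

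With trametinib, CDKN2A in AsPC-1 was lower in both matched comparisons, at -0.20 without roseoflavin and -0.19 with it. The 2 libraries with trametinib agreed closely with each other, as did the 2 without it, and the pairs did not overlap. Such a separation downward was found in AsPC-1 in 12.6% of genes at 10 TPM or more. PANC-1 at 0 cannot show a change, so the effect over both lines, -0.099 (SE 0.055, limma adjusted p = 0.861), averages a line with the gene and a line without it. The difference between the lines in that effect was 0.20 (SE 0.072, limma adjusted p = 0.520). This is the AsPC-1 change with its sign turned and says nothing of a response in PANC-1. CDKN2B, next to CDKN2A, had values of 0.093 and -0.0075 in the same comparisons. Its SD over the 4 AsPC-1 libraries was 0.041 on the log2(TPM + 1) scale, and 8.44% of genes within 2-fold of its level had a smaller one. With roseoflavin the matched changes in AsPC-1 were -0.0086 and 0.0014 for CDKN2A, and 0.024 and -0.076 for CDKN2B.

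The other INK4 genes, CDKN2C and CDKN2D, were present in both lines. CDKN2C, which encodes p18INK4c, was at 5.16 to 6.91 TPM in AsPC-1 and 41.1 to 54.6 TPM in PANC-1, a difference of 2.79 (SE 0.066, limma adjusted p = 7.42e-08). CDKN2D, which encodes p19INK4d, was at 4.41 to 5.29 TPM in AsPC-1 and 9.05 to 10.2 TPM in PANC-1. Summed over the 4 INK4 genes, the level was 110 to 120 TPM in AsPC-1 and 51.3 to 64.1 TPM in PANC-1, or 188 to 214 and 67.2 to 85.2 without mitochondrial genes in the total. Per TPM of CDK4 and CDK6, that was 1.49 to 1.68 in AsPC-1 and 0.372 to 0.472 in PANC-1. This ratio is taken within a library, so the share of mitochondrial transcripts does not enter it. For trametinib, CDKN2C gave 0.20 and an unadjusted limma p of 0.0194 (adjusted p = 0.861). For roseoflavin it gave -0.18 and an unadjusted limma p of 0.0335 (adjusted p = 0.674).

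CDKN1A, which encodes p21, was the member most clearly higher in PANC-1. In AsPC-1 it was at 31.4, 27.4, 29.1 and 29.8 TPM with vehicle, roseoflavin, trametinib and both. In PANC-1 it was at 128, 122, 130 and 125 TPM. The lowest PANC-1 library was far above the highest AsPC-1 library. The difference was 2.07 (SE 0.043, limma adjusted p = 4.51e-08), which was 1.51 above the median gene and ranked 1045 by p among 19122 genes. It was 1.69 without mitochondrial genes and 1.62 after quantile normalization. Trametinib gave 0.019 (SE 0.043, limma adjusted p = 0.963), and its sign turned after quantile normalization, to -0.0014. Roseoflavin gave -0.070 (SE 0.043, limma adjusted p = 0.769), with lower values in 3 of 4 matched comparisons.

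CDKN1B, which encodes p27, went the other way between the lines. It was at 19.2, 14.9, 21.4 and 19.1 TPM in AsPC-1 and at 13.9, 14.7, 14.0 and 15.4 TPM in PANC-1. The AsPC-1 library with roseoflavin alone lay within the PANC-1 range, and the other 3 lay above it. The difference was -0.33 (SE 0.092, limma adjusted p = 0.0127), or -0.89 relative to the median gene. It was -0.72 without mitochondrial genes and -0.86 after quantile normalization. Without the filter on low values, when 62649 genes are adjusted for, it did not pass (limma adjusted p = 0.0751). CDKN1B was the most variable member in AsPC-1, with an SD of 0.21 on the log2(TPM + 1) scale, and 89.7% of genes within 2-fold of its level had a smaller one.

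With roseoflavin, CDKN1B was lower in both matched comparisons of AsPC-1 (-0.34 and -0.16) and higher in both of PANC-1 (0.071 and 0.13). That pattern was found in 13.4% of genes at 10 TPM or more. The first of these changes was past 1.2-fold, as in 10.7% of these genes in that pair. The difference between the lines in the roseoflavin effect was 0.35 (SE 0.092), with an unadjusted limma p of 0.0202 and an adjusted p of 0.370. With trametinib, CDKN1B was higher in 4 of 4 matched comparisons, as were 11.8% of these genes. The matched changes were 0.15 and 0.33 in AsPC-1. In PANC-1 they were 0.0046 and 0.065. The change of 0.33, taken in the presence of roseoflavin, was past 1.2-fold, as in 9.58% of them in that pair. It shares the AsPC-1 library with roseoflavin alone (14.9 TPM) with the roseoflavin change of -0.34, so they are not separate observations. The effect over both lines was 0.14 (SE 0.092, limma adjusted p = 0.861). Without that library it was 0.045, and the roseoflavin effect over both lines went from -0.074 to 0.019, neither of them past the threshold.

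The make-up of the inhibitors thus differed between the lines. The ratio of CDKN1A to CDKN1B, by TPM, was 1.36 to 1.83 in AsPC-1 and 8.15 to 9.32 in PANC-1. The third CIP/KIP gene, CDKN1C, which encodes p57, was at 0.950 to 1.34 TPM in AsPC-1 and 9.70 to 12.5 TPM in PANC-1, a difference of 2.51 (SE 0.087, limma adjusted p = 4.14e-07). Summed over the 3 CIP/KIP genes, the level was 43.7 to 51.6 TPM in AsPC-1 and 147 to 154 TPM in PANC-1. Over all 7 INK4 and CIP/KIP genes it was 160 to 171 TPM in AsPC-1 and 198 to 219 TPM in PANC-1. When mitochondrial genes were left out of the total, the CIP/KIP sums were 78.0 to 89.1 TPM in AsPC-1 and 193 to 205 TPM in PANC-1. The sums over all 7 genes were then 273 to 292 TPM in AsPC-1 and 260 to 291 TPM in PANC-1, which overlap, so the higher total in PANC-1 holds for TPM as deposited and not on that scale.

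**Figure D3:**
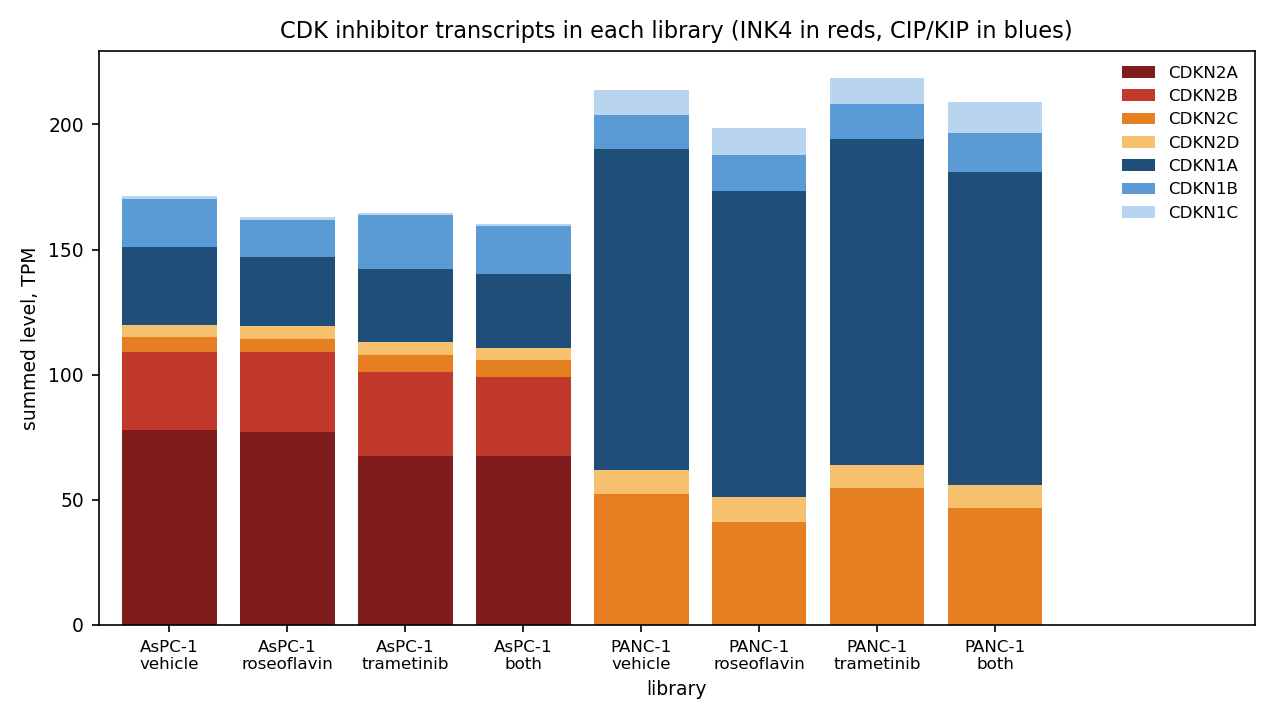
Stacked levels in TPM of the 4 INK4 genes (reds and oranges) and the 3 CIP/KIP genes (blues) in each library. CDKN2A and CDKN2B fill most of the stack in AsPC-1 and are missing in PANC-1, where CDKN1A and CDKN2C fill most of it, and the totals are 160 to 171 TPM for AsPC-1 but 198 to 219 TPM for PANC-1 in TPM as deposited; without mitochondrial genes in the total these ranges are 273 to 292 and 260 to 291 TPM and overlap.

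RB1, the substrate of CDK4 and CDK6, was present in both lines. It was at 17.1, 16.2, 21.1 and 18.0 TPM in AsPC-1 and at 32.0, 34.1, 32.4 and 30.4 TPM in PANC-1, without overlap. The difference was 0.80 (SE 0.080, limma adjusted p = 7.76e-05), which was 0.25 above the median gene. It passed under the 2 other scalings at smaller sizes, 0.44 without mitochondrial genes (limma adjusted p = 0.00239) and 0.30 after quantile normalization (limma adjusted p = 0.0117). In AsPC-1 both libraries with trametinib were above both without it, as in 29.8% of genes at 10 TPM or more. The matched changes there were 0.29 without roseoflavin, past 1.2-fold as in 15.1% of these genes in that pair, and 0.14 with it. In PANC-1 they were 0.018 and -0.16. The difference between the lines in the trametinib effect was -0.29 (SE 0.10), with an unadjusted limma p of 0.0460 and an adjusted p of 0.514.

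**Figure D4:**
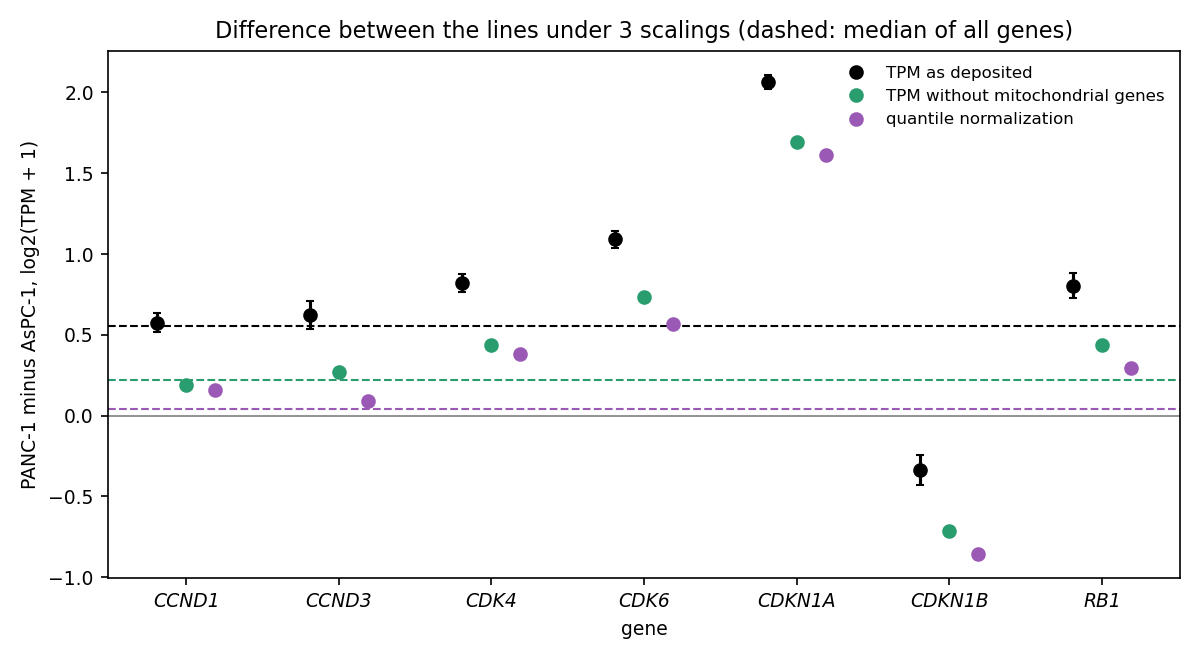
Difference between the lines (PANC-1 minus AsPC-1, log2(TPM + 1)) for the 7 members detected in both lines, under 3 scalings, with the limma standard error as bars for TPM as deposited; dashed lines mark the median of all genes under each scaling. CCND1 and CCND3 lie close to the median gene, CDKN1A lies far above it and CDKN1B below it under each scaling.

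**Figure D5:**
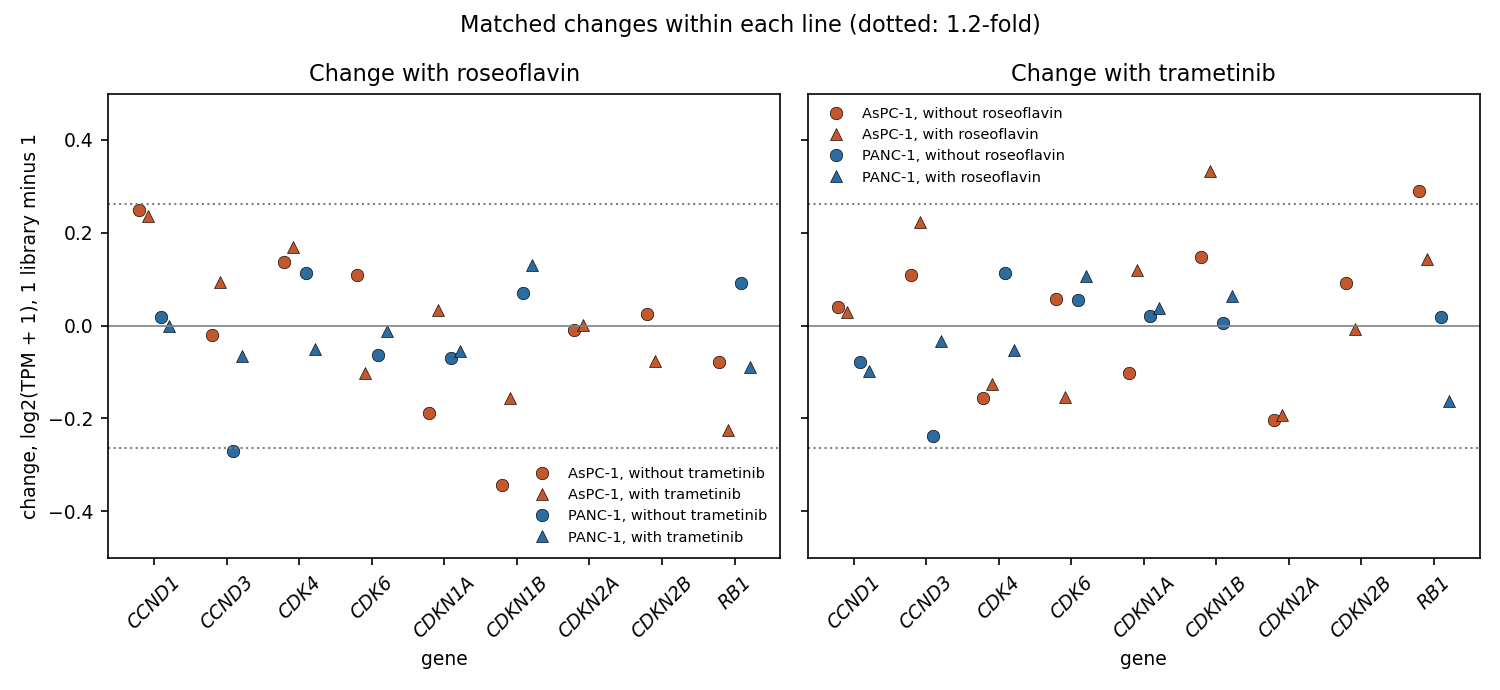
Matched changes with roseoflavin (left) and trametinib (right) for the 9 members tested, each point 1 library minus 1 library of the same line on the log2(TPM + 1) scale; colour marks the line, shape the presence of the other compound, and dotted lines 1.2-fold. CDKN2A and CDKN2B have no PANC-1 point because they are listed at 0 there; most points lie within 1.2-fold, and the roseoflavin changes of CCND1 in AsPC-1 (0.25 and 0.24) lie just inside it.

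No departure of the combined treatment from the sum of both compounds passed for any gene tested (0 of 19122, 0.0%, with 536 genes or 2.8% at an unadjusted limma p under 0.05). None of the 9 members had an unadjusted p under 0.05 in that test. The member with the smallest p was CDKN1A, with 0.12 (SE 0.082, limma adjusted p = 1.00). The changes past 1.2-fold named above, in CDKN1B, RB1, CCND1 and CCND3, were 1 member in each of 6 pairs of libraries. No member was past 1.2-fold with roseoflavin beside trametinib in AsPC-1, where 10.8% of genes at 10 TPM or more were, or in PANC-1, where 9.13% were. None was past it with trametinib in PANC-1, where 4.94% of these genes were without roseoflavin and 4.82% with it.

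The genes that report on ERK activity were examined beside the members, since MEK is the target of trametinib. None of the 13 passed for trametinib, and 6 had an unadjusted limma p under 0.05, as did 4.91% of all genes tested. The median change of the 13 was -0.15 against 0.018 for all genes. DUSP6, a phosphatase that ERK induces, was at 193, 176, 155 and 136 TPM in AsPC-1 with vehicle, roseoflavin, trametinib and both. In PANC-1 it was at 18.6, 17.5, 14.0 and 12.5 TPM. Its change with trametinib was -0.38 (limma adjusted p = 0.564), and that of EGR1, an immediate early gene, was -0.33 (adjusted p = 0.861). With roseoflavin these were -0.26 for EGR1 (adjusted p = 0.615) and -0.14 for DUSP6 (adjusted p = 0.641). Between the lines, 8 of the 13 passed as higher and 5 as lower in PANC-1, with the smallest p for DUSP4 and DUSP6 (-3.32). Of all genes tested, 62.3% passed as higher and 21.5% as lower. DUSP4 passed the filter through AsPC-1 alone (43.6 to 49.2 TPM) and was at 0.071 to 0.143 TPM in PANC-1.

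Among the factors that regulate the members, 11 of 12 were tested, and 5 passed as higher and 6 as lower in PANC-1. Over all genes tested, 62.3% passed as higher and 21.5% as lower. SMAD3, which carries TGF-β signals to CDKN2B and CDKN1A, was at 35.6 to 42.5 TPM in AsPC-1 and 146 to 154 TPM in PANC-1. MYC, which represses CDKN1A and CDKN2B, was at 63.2 to 79.5 TPM in AsPC-1 and 53.7 to 57.3 TPM in PANC-1. MYC had the smallest p of this group for trametinib (-0.12, limma adjusted p = 0.861), and ZBTB17, its partner in repression, for roseoflavin (-0.12, limma adjusted p = 0.686).

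Downstream of the D-type cyclins, the cyclin E, cyclin A and CDK2 group had 4 of 8 genes higher and 3 lower in PANC-1. For this and the next 3 groups, the shares over all genes tested were 62.3% higher and 21.5% lower. CCNE1, the cyclin that takes over CDK2 at the end of G1, was at 5.87 to 7.94 TPM in AsPC-1 and 18.7 to 24.3 TPM in PANC-1 (a difference of 1.60). CDK2 was at 22.4 to 24.4 TPM in AsPC-1 and 35.8 to 42.4 TPM in PANC-1 (0.73). Of 12 other RB family members and E2F factors, 10 were higher in PANC-1 and none passed as lower, with the smallest p for E2F3 (1.30) and E2F6 (0.98). The median of that group was 0.51, close to 0.55 for all genes. Of 16 E2F targets of S phase entry, 12 were higher and 3 lower, with a median of 0.53 and the smallest p for TYMS (1.48) and MCM2 (1.70). Of 11 genes for turnover and assembly of cyclins and inhibitors, 5 were higher and 3 lower, led by the chaperone HSP90AB1 (1.26) and the ubiquitin ligase subunit SKP1 (0.85).

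None of the genes in these 4 groups passed for a compound. For trametinib the smallest p-values were those of CCNE1 (-0.19) and CDK2 (-0.085), E2F8 (-0.19) and E2F1 (-0.16), CCNE1 and MCM7 (-0.12), and AMBRA1 (0.053) and FBXO31 (0.060), with limma adjusted p-values from 0.861 to 0.881. For roseoflavin they were those of CCNE2 (-0.076) and CDC25A (-0.099), E2F5 (0.12) and RBL2 (-0.12), TYMS (-0.088) and CDT1 (-0.10), and SKP2 (-0.15) and CKS1B (0.096), with limma adjusted p-values from 0.674 to 0.801. The median change of the S phase group was -0.059 with trametinib and -0.048 with roseoflavin.

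The gene most like each member was sought by Pearson's r of the deviations from the mean of each line, over the 8 libraries and 8630 named genes that averaged 10 TPM or more. The best match was RPP25 for CCND1, NOL8 for CCND3, ARHGAP29 for CDK4, ADGRA3 for CDK6, ZNF195 for CDKN1A, RAB3D for CDKN1B, GCAT for CDKN2A, PIK3CB for CDKN2B and FBXL5 for RB1. These r ran from 0.964 for CCND3 to 0.993 for CDKN1B. The best match of any gene had a median r of 0.983, so such values are the rule in 8 libraries that share their line means, library totals and treatments. For CDKN2A and CDKN2B, listed at 0 in every PANC-1 library, only the AsPC-1 libraries varied, so their r rests on fewer values.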

How the data were processed

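RNA was sequenced from 8 libraries, 1 for each line and treatment. Libraries were made with a stranded mRNA kit, per the labels' protocols. The authors deposited 1 table of TPM per gene, per the file headers, with the same sum in each library. The submitters' processing notes list STAR 2.7.3a, HTSeq 2.0.2 and hg38, without roles, and the annotation is not given in the sources used here.

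Samples were grouped by the labels. Values were taken as log2(TPM + 1), with a filter of 1 TPM in 2 libraries. Linear models were fitted over all genes kept with limma 3.58.1 in R 4.3.3 (a trend in the prior variance) and adjusted by Benjamini-Hochberg at 0.05. Main effects and the line difference had 4 residual degrees of freedom, line by compound tests 2 and the compound interaction 3. The code was tested on simulated data. P-values measure only the spread between these libraries.

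The members and lists were chosen with earlier results of these data known. Named were all members, the best match of each, and the 2 genes with the smallest p per list for each main effect and between the lines. Some results are not reported here. Alternatives were scaling, pseudocount, filter, model terms and leaving out each library. Coordinates are from GENCODE release 29 and promoters from RefSeq (GRCh38.p14), where 8 of 10 members matched.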

Additional observations from a re-analysis of the deposited data

How the results depend on the processing

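Each compound effect came from a model holding line and the second compound constant, so libraries were matched on these. With no line term (no block), 0 members and 0 genes passed for either compound. The labels give no replicate numbers by which to pair libraries further. The number of members past the threshold between the lines was 7 to 9 over 14 alternatives, and 0 in each compound test under all alternatives run. The count between the lines includes CDKN2A and CDKN2B, whose call carries no information because they are 0 in PANC-1. Lost calls were those of CCND1 (0.16) and CCND3 (0.089) after quantile normalization and CDKN1B (-0.33) without a filter. With genes of at least 10 TPM on average, fewer genes were tested, and 8388 of 9368 passed between the lines. Without a filter, 106 genes passed for the difference between lines in the trametinib effect, 27 for that in the roseoflavin effect and 14 for the compound interaction; the cause was not tested. Without a term for the line by the other compound, an alternative chosen after seeing the data, 5 genes passed for the difference between lines in the roseoflavin effect, and none was a member.

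Of 378 values of single members under alternatives, 349 kept direction and side of the threshold, 3 lost their call as above, and 26 changed sign, all of them uncalled compound effects near 0. The values kept include the line differences of CDKN2A and CDKN2B, whose calls carry no information. After quantile normalization the trametinib effect was -0.0089 for CCND3 and -0.0014 for CDKN1A, and the roseoflavin effect was 0.010 for CDK6, 0.012 for CDKN2A and 0.0012 for CDKN2B. Without mitochondrial genes, trametinib gave -0.0019 for CDK6 and roseoflavin gave 0.011 for CDKN2A. Leaving out 1 library at a time, the trametinib effect ran from -0.073 to 0.020 for CCND1, -0.062 to 0.10 for CCND3, -0.011 to 0.064 for CDK6, -0.0083 to 0.051 for CDKN1A and -0.0013 to 0.15 for RB1. The roseoflavin effect ran from -0.14 to 0.023 for CCND3, -0.065 to 0.020 for CDK6, -0.15 to 0.019 for CDKN1B, -0.027 to 0.025 for CDKN2A and -0.028 to 0.0081 for CDKN2B. The unknown depth limits what can be said of values near 0, such as CCND2.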
